A study of Mus musculus with 16 samples.

Results

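The pre-B cell receptor genes are 9 genes, Cd79a, Cd79b, Vpreb1, Vpreb2, Vpreb3, Igll1, Blnk, Syk and Btk, taken by symbol from 2 tables of normalized counts. All 9 were listed in both tables, among 15080 genes in tumor and 13344 in stroma. Leukemic cells recovered from mice without IL-6 carried more RNA of the surrogate light chain genes Vpreb1 (1.44-fold) and Vpreb2 (1.41-fold) and of the kinase Syk (1.23-fold) than leukemic cells from WT mice, each more than the spread between 4 libraries per genotype allows (standard errors of 0.08, 0.10 and 0.05 on the log2 scale). The Syk call was lost when the trend with GC content and transcript length was removed (adjusted p = 0.0533, limma). Neutrophil markers were also higher in the IL-6 KO tumor libraries, and their part in the Syk values was not tested. Transcripts of the other 6 genes did not pass the test in tumor, where 19.8% of all genes tested did. In stroma none of the 8 members tested passed it, where 1 of 12202 genes did. Vpreb2 was under the filter there.

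The pre-B cell receptor is the first antigen receptor form that a developing B cell places on its surface. An immunoglobulin heavy chain pairs with a surrogate light chain, made of a VpreB protein and the lambda5 protein that Igll1 encodes, and the complex sits beside the signaling dimer of CD79a and CD79b. When the receptor is engaged the kinase SYK docks on the tails of that dimer, and the adaptor BLNK then brings BTK and phospholipase C gamma together. The receptor is used for a short time in normal B cell development, and its genes are widely read as signs of the pro-B and pre-B stages, at which many B cell acute lymphoblastic leukemias (B-ALL) are arrested.

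RNA-sequencing was done on 16 libraries in 4 groups of 4 (WT tumor, IL-6 KO tumor, WT stroma and IL-6 KO stroma). Hosts were C57BL/6J mice, WT or Il6-/- (IL6KO), aged 6 to 8 weeks and untreated, and each received 500000 BCR-ABL+ Arf-/- B-ALL cells by tail vein. The leukemia was the same in all hosts, so that the genotype is that of the recipient and not of the leukemic cells. It was a transduced line of male cells that expressed luciferase and, from an MSCV retrovirus, mCherry. Marrow of femur and tibia was taken 8 days after injection, red cells were lysed, and live single cells were sorted into mCherry+ (tumor) and mCherry- (stroma), so that stroma stands for every other marrow cell and not for stromal cells alone. The labels do not say which libraries came from separate mice, so p-values measure the spread between these libraries. Il6 itself is not listed in either table, and the genotypes were therefore not checked by their targeted gene.

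Vpreb1 and Vpreb2 are near copies, and this bears on their values. A stretch they share upstream of the coding region is shown here because both rose in tumor. RefSeq promoter sequences were found for 8 of the 9 genes, Cd79b being the exception. A stretch of 106 bases upstream of the Vpreb1 start in RefSeq was found again upstream of Vpreb2, with 104 bases identical (98.1%). The bases in capitals are those that differ, G12T and C104T, counted from 1 at the 5′ end of the stretch with the Vpreb1 base first. On GRCm38.p6 the Vpreb1 stretch lies at chr16:16869256-16869361 on the minus strand, where GENCODE vM21 has a non-coding alternative transcript of Vpreb1. The Vpreb2 stretch lies at chr16:17980315-17980420 on the plus strand and overlaps no annotated gene.

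Vpreb1: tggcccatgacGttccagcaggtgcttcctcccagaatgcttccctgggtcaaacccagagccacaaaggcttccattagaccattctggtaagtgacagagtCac
Vpreb2: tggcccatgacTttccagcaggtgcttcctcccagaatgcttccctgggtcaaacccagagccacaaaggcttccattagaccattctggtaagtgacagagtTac

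The transcripts of the pair aligned over 759 bases, of which 739 were identical (97.4%), with 20 mismatches. Of the 692 windows of 75 nt in the Vpreb1 transcript, the length of a read, 136 (19.7%) also occur in Vpreb2. No such window was shared with another gene for 6 of the other 7 members, and for Cd79a 62 of 1383 windows (4.48%) were shared with Gm32220. How reads were divided between Vpreb1 and Vpreb2 is therefore uncertain, and their sum is given beside the separate values.

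Igll1, the partner of the VpreB genes, lies 4417 bases from Vpreb1 and did not pass the test in tumor, and Vpreb3 is a VpreB-like gene on chromosome 10 that did not pass it either. The 160 bases upstream of each RefSeq start are shown to set beside the pair. Capitals mark matches to 4 motifs searched on both strands, ATGCAAAT (the octamer), AGGAAGT (an Ets core), CAGGTG (an E box) and CCCNNGGG (an Ebf core), the matches not overlapping each other. The Igll1 stretch lies at chr16:16863986-16864145 on the minus strand, between genes, and the Vpreb3 stretch at chr10:75948140-75948299 on the plus strand, in an intron of a longer annotated Vpreb3 transcript.

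Igll1: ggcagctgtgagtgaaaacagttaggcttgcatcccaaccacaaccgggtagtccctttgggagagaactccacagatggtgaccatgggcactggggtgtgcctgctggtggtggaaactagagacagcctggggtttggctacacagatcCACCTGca
Vpreb3: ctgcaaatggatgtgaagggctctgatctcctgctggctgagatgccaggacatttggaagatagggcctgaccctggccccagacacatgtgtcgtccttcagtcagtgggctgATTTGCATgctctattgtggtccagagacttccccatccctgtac

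Within 250 bases upstream of the start the octamer occurs in 1.60% of 32851 RefSeq promoters, and among the members it was found in Vpreb3 and Blnk. The E box occurs in 17.2% of promoters and was found in Vpreb1, Vpreb2, Igll1, Cd79a, Blnk and Syk. The Ets core (7.69% of promoters) was found in Cd79a, Vpreb3 and Blnk, and the Ebf core (11.8% of promoters) in Igll1. A match describes these letters and no binding was measured.

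All 9 genes were strongly expressed in leukemic cells. In WT tumor they ranked between the percentiles 83.9 and 98.7 of the 11812 genes listed in both tables. Per kb of transcript, which removes the effect of gene length, the order of mean levels in WT tumor was Igll1 (27662 normalized counts per kb), Vpreb1 (22140), Cd79a (15240), Vpreb2 (11555), Vpreb3 (10995), Cd79b (6010), Blnk (2436), Syk (1808) and Btk (1494). Of these neighbours, Vpreb2 and Vpreb3 overlapped between libraries and the others did not. In IL-6 KO tumor Vpreb1 (32017 per kb) stood above Igll1 (29177), with libraries that overlapped. Ighm, the heavy chain of the receptor, had 15074 normalized counts per kb in WT tumor and 15443 in IL-6 KO tumor. RNA of the 3 parts of the receptor complex was thus at high level in both hosts, and the signaling enzymes stood at the foot of the order. Neither the proteins nor the receptor at the cell surface was measured in these libraries.

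**Figure D1:**
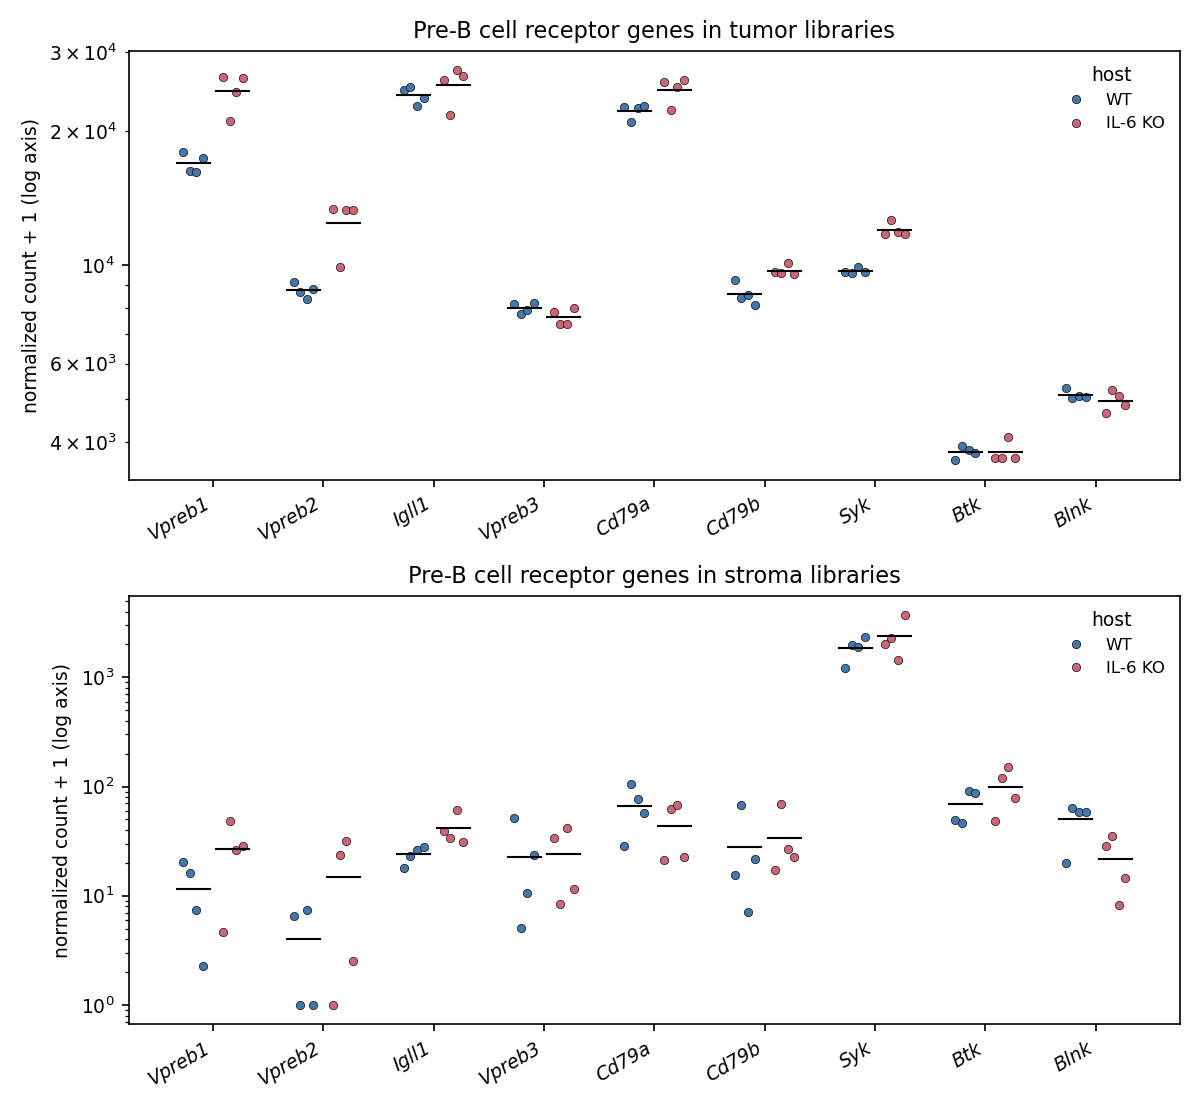
Normalized count plus 1 of the 9 genes in each tumor library (upper panel) and each stroma library (lower panel) on log axes, with WT hosts in blue, IL-6 KO hosts in red and the mean of 4 libraries as a bar. In tumor the genotypes do not overlap for Vpreb1, Vpreb2, Syk and Cd79b, while in stroma the libraries of 1 group differ by several fold and 3 libraries have Vpreb2 at 0.

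The first comparison asks how the loss of IL-6 in the host changes the leukemic cells. Of the 9 genes, 3 passed at an adjusted p under 0.05 (limma on log2 normalized count plus 1), all higher in IL-6 KO, where 19.8% of the 14493 genes tested passed in either direction and 10.6% passed as higher and 9.16% as lower. With 4 of 9 genes the genotypes did not overlap, all 4 higher in IL-6 KO, against 13.6% of all genes. The median log2 fold change of the 9 was 0.15, and that of all genes -0.01. In bulk RNA from a sort, fewer cells of a type and less RNA per cell cannot be told apart.

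The surrogate light chain genes differed among themselves. Vpreb1, which encodes the variable-like part of the surrogate chain, had normalized counts of 17965, 16284, 16186 and 17402 in WT tumor and 26370, 21008, 24477 and 26246 in IL-6 KO tumor. Every IL-6 KO library was above every WT library, and the lowest IL-6 KO value came from library 2. The log2 fold change was 0.53 (SE 0.08, 95% confidence interval 0.35 to 0.71, limma adjusted p = 0.00368).

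Vpreb2, its near copy, had 9165, 8714, 8374 and 8829 in WT tumor and 13317, 9895, 13249 and 13309 in IL-6 KO tumor. The same library 2 was again the lowest of the IL-6 KO group, and again above all WT libraries. The log2 fold change was 0.49 (SE 0.10, 95% confidence interval 0.28 to 0.71, limma adjusted p = 0.00921). Vpreb2 made up 33.7% to 34.9% of the summed counts of the pair in WT tumor and 32.0% to 35.1% in IL-6 KO tumor. Summed to 1 feature, the pair had a log2 fold change of 0.52 (adjusted p = 0.005, limma).

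Igll1 encodes lambda5, the constant-like part of the surrogate light chain, and had 24729, 25085, 22714 and 23737 in WT tumor and 25947, 21689, 27346 and 26554 in IL-6 KO tumor. Its genotypes overlapped, library 2 of the IL-6 KO group being the lowest of all 8. The log2 fold change was 0.07 (SE 0.08, 95% confidence interval -0.10 to 0.25, limma adjusted p = 0.552). Without that library it was 0.15 (adjusted p = 0.0672, limma), and with the GC content and length trend removed 0.19 (adjusted p = 0.223, limma). Vpreb3, whose product binds newly made immunoglobulin chains inside the cell, had 7747 to 8203 in WT tumor and 7359 to 7999 in IL-6 KO tumor, with a log2 fold change of -0.07 (SE 0.06, limma adjusted p = 0.412).

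Ratios within a library do not depend on how the library was scaled. The log2 ratio of summed Vpreb1 and Vpreb2 to Cd79a was 0.21 ± 0.06 in WT tumor against 0.57 ± 0.07 in IL-6 KO tumor (SD over 4 libraries). All 4 IL-6 KO libraries (0.47 to 0.63) were above all 4 WT libraries (0.12 to 0.26), which gave p = 0.0286 in an exact two-sided permutation test, the smallest p that 4 against 4 allow. Adjusted over the 4 ratios tested in both compartments, p was 0.114 (exact permutation), which did not pass. With Cd79b in place of Cd79a the difference was 0.34 against 0.36, and the exact permutation p was 0.0571.

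The same ratio for Igll1 was 0.12 ± 0.11 in WT tumor against 0.03 ± 0.07 in IL-6 KO tumor (SD over 4 libraries, exact permutation p = 0.286, adjusted p = 0.286). Per kb, the VpreB genes together stood at 1.22 ± 0.06 times Igll1 in WT tumor and at 1.66 ± 0.08 times Igll1 in IL-6 KO tumor (SD, n = 4). The ranges of this RNA proportion, 1.14 to 1.26 and 1.57 to 1.74, did not overlap. It was not among the 4 ratios tested, and a difference between the hosts in it was not tested.

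**Figure D2:**
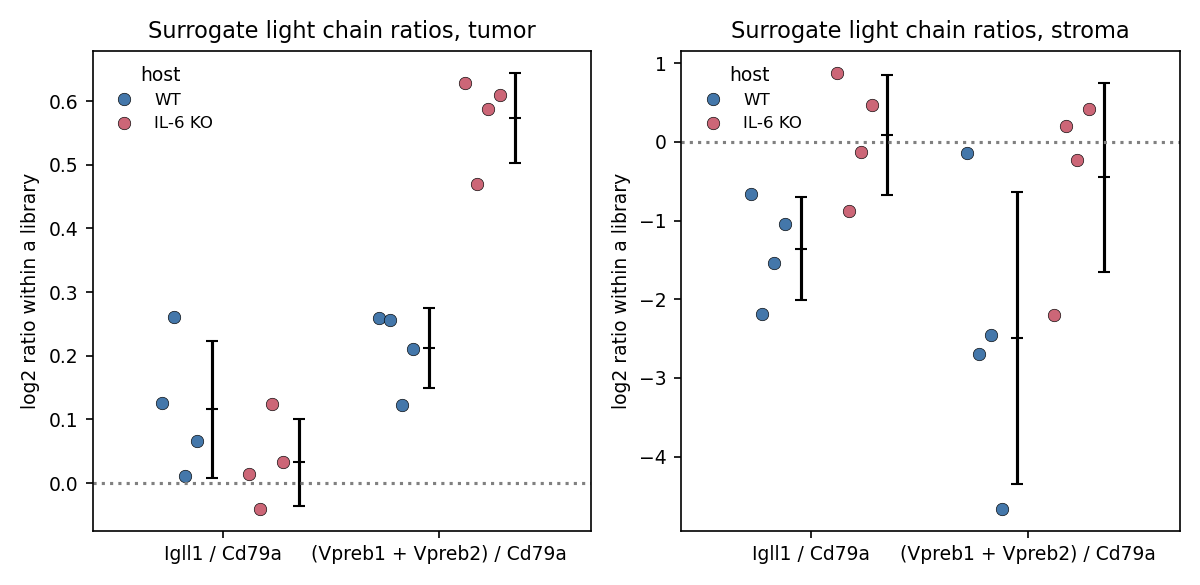
Log2 ratio of Igll1, and of Vpreb1 plus Vpreb2, to Cd79a within each tumor library (left) and stroma library (right), with bars for the mean and SD of 4 libraries and WT hosts in blue and IL-6 KO hosts in red. In tumor the VpreB ratio is 0.12 to 0.26 in WT and 0.47 to 0.63 in IL-6 KO, while the Igll1 ratios of the hosts overlap.

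The signaling dimer had smaller differences. Cd79a had normalized counts of 22657, 20941, 22546 and 22677 in WT tumor and 25678, 22305, 25092 and 25936 in IL-6 KO tumor. A single IL-6 KO library, number 2, lay within the WT range. The log2 fold change was 0.15 (SE 0.06, 95% confidence interval 0.01 to 0.30, limma adjusted p = 0.119), and without that library it was 0.20 (adjusted p = 0.0167, limma). Leaving out each library in turn gave 0.13 to 0.20, with adjusted p of up to 0.263 (limma). With the GC content and length trend removed the log2 fold change was -0.017 (adjusted p = 0.895, limma). Cd79b had 9270, 8445, 8543 and 8144 in WT tumor and 9619, 9597, 10084 and 9528 in IL-6 KO tumor. Its genotypes did not overlap, and the log2 fold change was 0.18 (SE 0.06, 95% confidence interval 0.04 to 0.31, limma adjusted p = 0.0630). Without WT library 1, the highest of its group, it was 0.21 (adjusted p = 0.0405, limma), under quantile normalization 0.11 (adjusted p = 0.195) and with the GC content and length trend removed 0.037 (adjusted p = 0.747). Ighm had 25596 ± 1568 in WT tumor against 26223 ± 1405 in IL-6 KO tumor (SD over 4 libraries), with a log2 fold change of 0.04 (SE 0.07, limma adjusted p = 0.738).

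Of the cytoplasmic signaling genes, Syk alone passed the test. Syk, the kinase that docks on the phosphorylated dimer, had 9654, 9612, 9876 and 9646 in WT tumor and 11708, 12629, 11841 and 11729 in IL-6 KO tumor. The WT libraries had a coefficient of variation of 1.24%, and every IL-6 KO library was above them. The log2 fold change was 0.30 (SE 0.05, 95% confidence interval 0.19 to 0.42, limma adjusted p = 0.00554). When the trend of its values with GC content and transcript length was taken out of every library it was 0.19 and no longer passed (adjusted p = 0.0533, limma).

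Blnk, the adaptor downstream of Syk, had 5034 to 5293 in WT tumor and 4655 to 5234 in IL-6 KO tumor, which gave a log2 fold change of -0.05 (SE 0.06, 95% confidence interval -0.18 to 0.09, limma adjusted p = 0.617). Btk, the kinase that BLNK places beside its substrate phospholipase C gamma, had 3646 to 3922 in WT tumor and 3678 to 4112 in IL-6 KO tumor, which gave a log2 fold change of -0.0029 (SE 0.06, 95% confidence interval -0.15 to 0.14, limma adjusted p = 0.980). Neither estimate differed from 0 by more than its standard error.

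**Figure D3:**
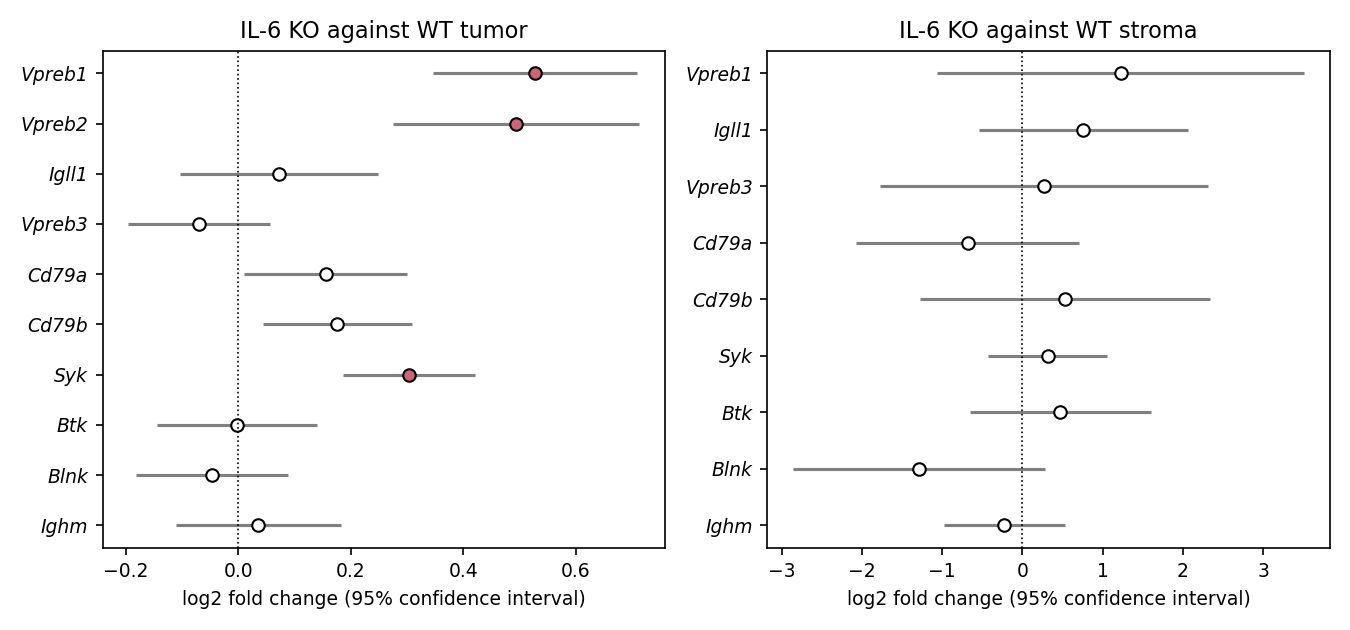
Log2 fold change of IL-6 KO against WT in tumor (left) and in stroma (right) with 95% confidence intervals, for the members tested and for Ighm, filled where the limma adjusted p is under 0.05. Vpreb1 (0.53), Vpreb2 (0.49) and Syk (0.30) are filled in tumor and none is filled in stroma, whose axis is several times wider.

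Across the 8 tumor libraries the members fell into a few patterns, described here by Pearson correlation of log2 values over both genotypes together. Any difference between the genotypes is therefore part of each r. Vpreb1 and Vpreb2 had r = 0.98, with reads that cannot all be told apart. Cd79a had r = 0.91 with Vpreb1 and 0.92 with Vpreb2, above its r of 0.68 with Cd79b. Syk had r = 0.84 with Vpreb1 and r = 0.14 with Igll1, and Blnk had r = -0.66 with Cd79a. Among 11229 other genes with a mean of at least 50, the closest to the mean standardized profile of the 9 members over the 8 tumor libraries were Got2 (r = 0.989), Slc39a1 (r = 0.989), Echs1 (r = 0.989), Phb (r = 0.989) and Trp53 (r = 0.987). In stroma the closest of 8074 genes were Nemf (r = 0.975), Atxn1l (r = 0.972), Tars2 (r = 0.952), Taf8 (r = 0.950) and Pwwp3a (r = 0.936), over 8 members and 8 libraries. The stroma members shared no single pattern, with r from -0.57 (Vpreb3 with Blnk) to 0.65 (Igll1 with Btk). In both compartments the genes named were picked for the highest r. Whether so high an r arises among this many genes without any relation was not tested.

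Markers of other marrow cells were measured in the same tumor libraries. All 14 neutrophil markers of a list were listed, and 11 of them were called higher in IL-6 KO tumor (median log2 fold change 1.38). Their summed normalized count was 4977 to 5716 in WT tumor, 7936 in IL-6 KO library 3 and 17084 to 19212 in IL-6 KO libraries 1, 2 and 4. Library 2, with the largest neutrophil sum, had the highest Syk count and the lowest Vpreb1, Vpreb2, Cd79a and Igll1 counts of the IL-6 KO group. In library 3, with the smallest sum of the IL-6 KO group but still above every WT library, Syk was 11841. With each library left out in turn, the adjusted p of Syk was at most 0.0201 (limma). This does not bear on the neutrophil markers, since every IL-6 KO library left in has a larger sum than the WT libraries.

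Monocyte and macrophage markers summed to 1917 to 2347 in WT tumor and 2373 to 3025 in IL-6 KO tumor, with 2 of 10 called higher. Mature B cell markers summed to 9709 to 11841 in WT tumor and 7232 to 9120 in IL-6 KO tumor, with 4 of the 7 listed called lower and the defining markers Ms4a1, Fcer2a and Cxcr5 not listed. Pro-B and pre-B markers, a list that includes 3 of the members, were all listed, with means from 99.4 (Dntt) to 24066 (Igll1) normalized counts in WT tumor. All markers of the B lineage list were listed too, from Cd72 at 471 to Cd79a at 22205, and 2 of them, Ebf1 and Cd24a, were called lower in IL-6 KO tumor. The part of the neutrophil, monocyte and mature B cell markers in the results on the members was not tested.

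In stroma the VpreB genes and Igll1 were at low levels, between 0 and 60.3 normalized counts, while Syk was abundant. Levels were set across compartments as multiples of each library's median over the 10887 genes tested in both tables. The tables were normalized separately, and no test was made across them. Vpreb1 stood at 15.7 times the median gene in WT tumor and at 0.106 times in WT stroma, so that its stroma level was 0.676% of its tumor level. For Vpreb2 and Igll1 the WT stroma level was 0.360% and 1.03% of the tumor level. For Vpreb3, Cd79a and Cd79b it was 2.94%, 3.20% and 3.42%. Blnk (10.3%), Ighm (11.5%) and Btk (19.2%) followed. Syk stood at 18.5 times the median gene in WT stroma and 8.99 times in WT tumor, which is 206% of its tumor level, and in IL-6 KO hosts the figure was 209%. Its percentile was 95.8 to 98.2 in WT stroma and 95.1 to 95.3 in WT tumor. This order depends on the scale. In IL-6 KO hosts mean Syk counts were 2365 in stroma and 11977 in tumor, where libraries summed to 33973016 to 44191950 and 47267047 to 55592959. In WT hosts the means were 1845 and 9697. Syk is used by receptors of myeloid cells and platelets as well as by B cells. Neutrophil and erythroid markers were abundant in the stroma libraries, with sums of 8064 to 33914 and 53014 to 220628.

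**Figure D4:**
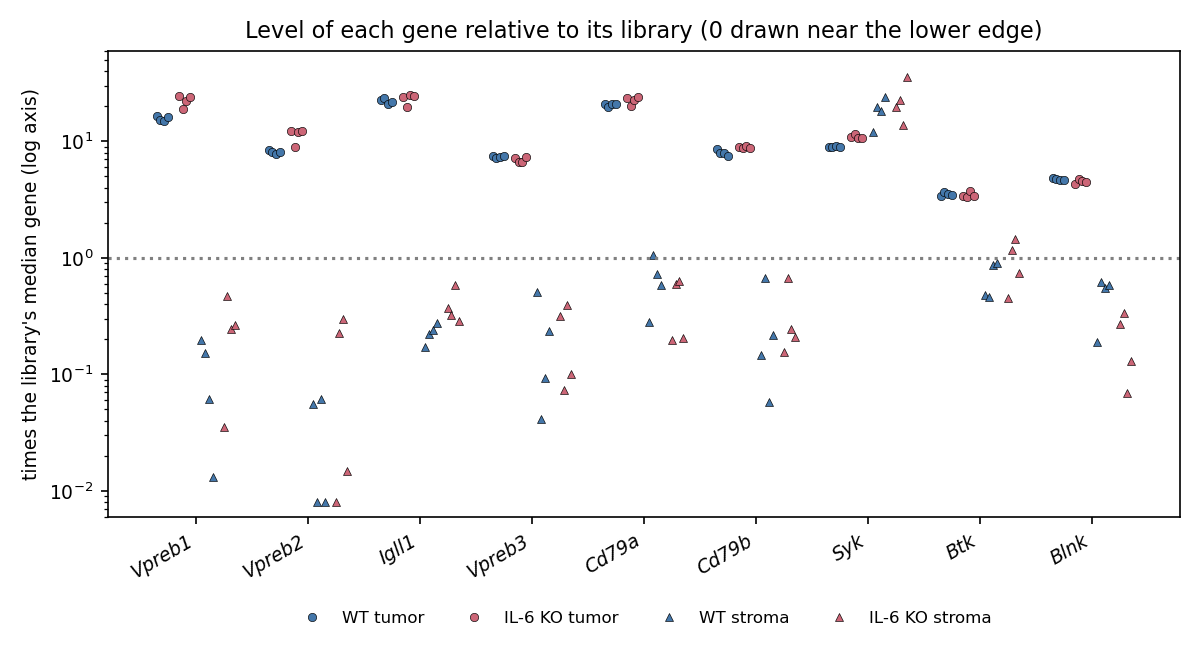
Level of each gene in each library as a multiple of the median gene of that library (log axis), with tumor libraries as circles, stroma libraries as triangles, WT hosts in blue, IL-6 KO hosts in red and values of 0 drawn near the lower edge. Syk lies well above the dotted line at 1 in every library of both compartments, while the stroma libraries of the 6 receptor chain and VpreB genes lie near or below it.

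The second comparison asks the same question of the mCherry- marrow cells. Of the 8 members tested in stroma, Vpreb2 being under the filter, 0 passed at an adjusted p under 0.05 (limma) and 0 at an unadjusted p under 0.05, where 0.0082% and 9.15% of the 12202 genes tested did. Standard errors ran from 0.34 to 1.06 on the log2 scale, against 0.05 to 0.10 in tumor. In Igll1 alone the genotypes did not overlap, higher in IL-6 KO, against 2.54% of all genes, and no member was without overlap in the other direction, against 3.25%. The median log2 fold change was 0.39, and that of all genes -0.01.

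Igll1 in stroma had normalized counts of 17.1, 22.2, 25.2 and 27.0 in WT and 38.2, 32.7, 60.3 and 30.1 in IL-6 KO libraries. The groups were separated by a narrow gap, and the log2 fold change was 0.76 (SE 0.60, 95% confidence interval -0.54 to 2.06, limma adjusted p = 0.723). Vpreb1 had 19.5, 15.2, 6.43 and 1.276 in WT and 3.62, 47.3, 25.4 and 27.5 in IL-6 KO stroma, with 3 IL-6 KO libraries above all WT libraries and the other within their range (log2 fold change 1.22, SE 1.06, limma adjusted p = 0.745). Vpreb2 was listed at 0 in WT stroma libraries 2 and 4 and in IL-6 KO library 1, and had 5.48 and 6.44 in the other WT libraries and 22.8, 30.9 and 1.53 in the other IL-6 KO libraries. Vpreb3 had 4.10 to 49.99 in WT and 7.44 to 41.1 in IL-6 KO stroma.

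Cd79a had 27.6, 104, 75.3 and 56.7 in WT and 20.3, 60.8, 66.1 and 21.5 in IL-6 KO stroma (log2 fold change -0.68, SE 0.64, limma adjusted p = 0.768). Cd79b had 6.08 to 66.4 in WT and 16.2 to 67.5 in IL-6 KO stroma (log2 fold change 0.53, SE 0.83, limma adjusted p = 0.880). The genotypes overlapped for both chains of the dimer. The Igll1 to Cd79a log2 ratio was -1.36 ± 0.66 in WT against 0.09 ± 0.76 in IL-6 KO stroma (SD over 4 libraries, exact two-sided permutation p = 0.0571, adjusted p = 0.114). With each library left out in turn the difference of 1.44 ran from 1.17 to 1.76 (exact permutation p of at most 0.114). With Cd79b in place of Cd79a the difference was 0.23 (exact permutation p = 0.8). The VpreB to Cd79a ratio was -2.49 ± 1.85 in WT and -0.45 ± 1.20 in IL-6 KO stroma (SD, n = 4, exact permutation p = 0.0857, adjusted p = 0.114), and the difference of 2.04 became 0.82 with Cd79b as denominator (exact permutation p = 0.571).

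Blnk had 18.8, 61.9, 57.9 and 57.2 in WT and 27.8, 33.9, 7.19 and 13.5 in IL-6 KO stroma, and had the smallest p of the members there (log2 fold change -1.29, SE 0.73, unadjusted p = 0.0991, limma adjusted p = 0.608). A single WT library, number 1, lay among the IL-6 KO values. Syk had 1203, 1957, 1893 and 2327 in WT and 2022, 2295, 1434 and 3708 in IL-6 KO stroma (log2 fold change 0.31, SE 0.34, limma adjusted p = 0.811). With 1 library left out the estimate ran from 0.068, without IL-6 KO library 4, to 0.52, without IL-6 KO library 3, and it was 0.12 without WT library 1. The genotype effects of the compartments were not compared by a test. Btk had 45.4 to 90.5 in WT and 46.8 to 150 in IL-6 KO stroma (log2 fold change 0.47, SE 0.52, limma adjusted p = 0.813).

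The other genes of the pathway were taken from 4 lists of 98 genes in all. In tumor 96 of them were tested and 21 passed, 9 higher and 12 lower in IL-6 KO, which is 21.9% against 19.8% of all genes, so that the lists as a whole were called about as often as other genes. Their median log2 fold change was -0.05.

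Of 41 kinases, adaptors and phospholipases that act with the receptor, 4 rose and 3 fell (median 0.12). Prkcd, a protein kinase C that is activated below the receptor, rose from 3048 ± 94.6 to 3853 ± 332 (SD, n = 4, log2 fold change 0.33, SE 0.07, limma adjusted p = 0.0135), and Itpr3, a calcium channel of the endoplasmic reticulum, by a log2 fold change of 0.37 (adjusted p = 0.0142, limma). Fgr, a SRC family kinase best known from myeloid cells, rose from 47.1 ± 17.5 to 157 ± 62.3 (SD, n = 4, log2 fold change 1.68, SE 0.35, limma adjusted p = 0.0107). From this low level it moved in the direction of the neutrophil markers given above. In WT stroma Fgr had 350.2 on a separate scale, where library medians were 96.9 to 104 against 1069 to 1085 in WT tumor. Grb2, the adaptor that leads to RAS, fell by 0.44 on the log2 scale (adjusted p = 0.00678, limma), and Malt1, a protease and scaffold on the way to NF-kB, by 0.75 (adjusted p = 0.00727, limma). Prkcb, the main protein kinase C of B cell receptor signaling to NF-kB, had a log2 fold change of -0.23 (adjusted p = 0.0490, limma), a call lost in 9 of the alternative settings.

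Of 24 genes listed as inhibitors, 3 rose and 4 fell (median -0.07). Ptpn22, a phosphatase that dampens SRC family kinases, fell from 3239.5 ± 44.8 to 2318 ± 77.4 (SD, n = 4, limma adjusted p = 0.00153), and Inpp5b, an inositol phosphatase, from 1768 ± 565 to 646 ± 282 (SD, n = 4, limma adjusted p = 0.0142).

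Ptpn11, which encodes the phosphatase SHP2, rose by a log2 fold change of 0.38 (SE 0.07, limma adjusted p = 0.00785). Pirb, an inhibitory receptor of myeloid and B cells, rose from 64.0 ± 17.7 to 159 ± 48.4 (SD, n = 4, limma adjusted p = 0.0140), and Dok3, an adaptor that restrains the receptor, had a log2 fold change of 0.40 (adjusted p = 0.0294, limma) that was lost in 6 alternative settings. In stroma, on its separate scale, Pirb stood at 713 ± 234 and Dok3 at 1069 ± 360 in WT hosts (SD, n = 4). The genes of this list therefore went both ways, and whether each acts as an inhibitor in these cells was not tested.

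Of 23 transcription factors that act on or below the complex, 2 rose and 3 fell (median -0.04). Tcf3, whose products E12 and E47 act on the genes of the surrogate light chain, rose from 18211 ± 945 to 23466 ± 1846 (SD, n = 4, log2 fold change 0.36, limma adjusted p = 0.00835). Ebf1, its partner in B cell specification, fell from 17438 ± 1021 to 14178 ± 1320 (SD, n = 4, log2 fold change -0.30, limma adjusted p = 0.0254). Irf8 rose by a log2 fold change of 0.38 (adjusted p = 0.0115, limma). The removal of the GC content and length trend ended the calls of Tcf3 (0.18, limma adjusted p = 0.110), Irf8 (0.20, limma adjusted p = 0.132) and Ebf1 (-0.06, limma adjusted p = 0.665).

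Bach2, a repressor that acts at the pre-B cell receptor checkpoint, fell from 6635 ± 737 to 4468 ± 858 in tumor (SD, n = 4, log2 fold change -0.58, SE 0.13, limma adjusted p = 0.0145), with no overlap of the genotypes. In stroma Bach2 had 959 ± 331 in WT and 244 ± 148 in IL-6 KO libraries (SD, n = 4, log2 fold change -2.16, SE 0.52, limma adjusted p = 0.305). Ets1 had a log2 fold change of -0.27 in tumor (adjusted p = 0.0383, limma), a call lost in 7 alternative settings. Of 8 recombination genes, which join the gene segments of the heavy chain before the receptor can form, none rose and 2 fell. These were Dclre1c, the nuclease Artemis (log2 fold change -0.46, limma adjusted p = 0.0192), lost in 4 settings, and Xrcc4, of the end joining ligase (log2 fold change -0.49, limma adjusted p = 0.0372), lost in 10 settings.

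**Figure D5:**
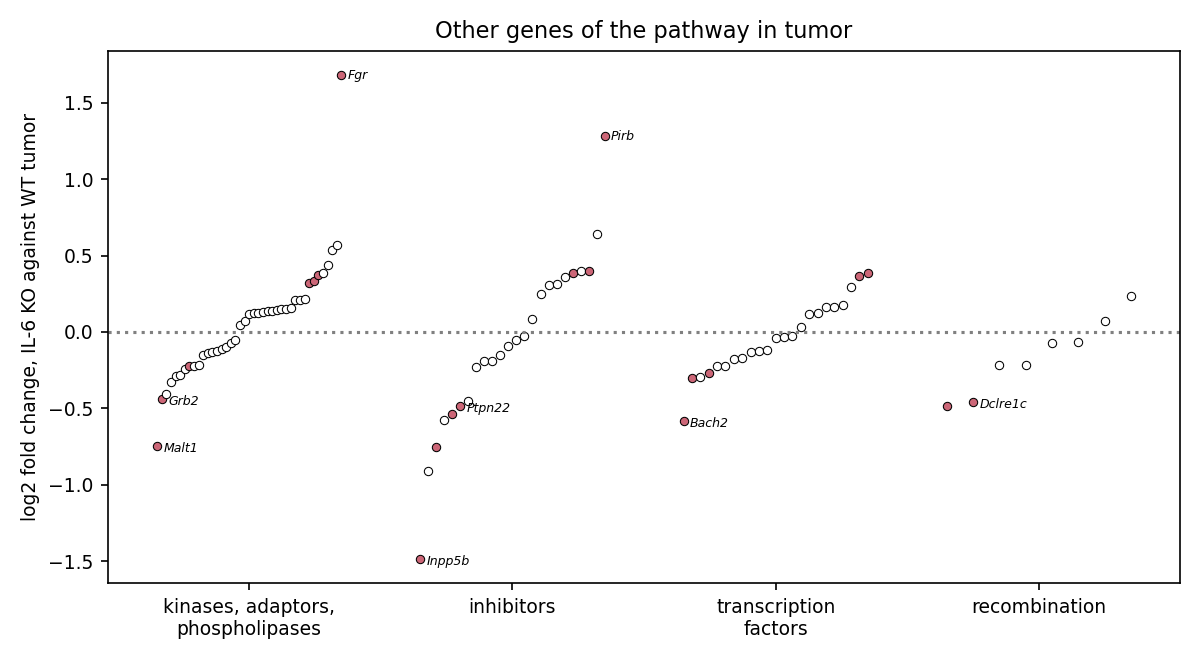
Log2 fold change of IL-6 KO against WT tumor for 96 other genes of the pathway in 4 lists, ordered by value within each list and filled where the limma adjusted p is under 0.05. Filled genes lie on both sides of 0 in the first 3 lists, from Inpp5b (-1.49) to Fgr (1.68), and several of the filled genes farther from 0 carry their names.

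In stroma 93 of the 98 pathway genes were tested and 0 passed (limma), with 7 at an unadjusted p under 0.05. The genes with the smallest p in their lists were Pik3r1 (log2 fold change -0.73, limma adjusted p = 0.467) and Nck1 (1.25, limma adjusted p = 0.570) among kinases and adaptors, and Dok2 (3.28, limma adjusted p = 0.432) and Pag1 (1.06, limma adjusted p = 0.502) among inhibitors. Nfatc3 (0.61, limma adjusted p = 0.555) followed Bach2 among transcription factors. Rag1, the recombinase, had 169 ± 39.2 in WT and 77.7 ± 43.2 in IL-6 KO stroma (SD, n = 4, limma adjusted p = 0.476), and Dclre1c had a log2 fold change of -0.80 (adjusted p = 0.684, limma). Markers of the B lineage summed to 5319 to 8937 in WT and 3108 to 5815 in IL-6 KO stroma. Most of the sum was Cd24a, a gene of many marrow cell types, with means of 5948 and 3856, while the other 7 markers had means of 27.0 to 358 in WT stroma. Of the mature B cell markers, 5 of 10 were at 0 in at least 1 library. The part of these markers in the stroma values was not tested.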

How the data were processed

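Directional, rRNA-depleted RNA libraries of sorted mCherry+ tumor and mCherry- stroma were sequenced as single 75 nt reads, per the labels on mm10. The authors quantified transcripts with Salmon 1.3.0, correcting for sequence and GC bias, and normalized the estimated counts with DESeq2 1.28.1 in a separate table for each compartment. The deposited values are these normalized counts, a scaled signal and not whole reads, so the depth of each library is unknown and no count test was run. Summed normalized counts were 38817792 to 44552085 in WT tumor and 47267047 to 55592959 in IL-6 KO tumor. In stroma they were 8805689 to 17470735 in WT and 33973016 to 44191950 in IL-6 KO libraries. The sums of the genotypes thus did not overlap in either compartment, with IL-6 KO higher. Library medians were closer, at 1069 to 1085 in WT and 1083 to 1102 in IL-6 KO tumor. The part of this difference in the fold changes was not tested. The annotation the authors counted on is not given in the sources used here. Tables of the authors' own comparisons hold means, fold changes and p-values and were not used.

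Samples were grouped by the genotype and compartment in their labels. Genes with a mean normalized count over 10 were tested within each table with limma 3.58.1 (R 4.3.3) on log2(normalized count + 1), moderated variances with a trend on the mean, two-sided, Benjamini-Hochberg over all genes tested, threshold 0.05. Fold changes are on that scale and understate the change of low genes. Ratios were tested by exact permutation over 70 assignments. The members and the gene lists were chosen with earlier results of these data known. Pathway genes were named as up to 3 per list, table and direction with the smallest adjusted p and a mean of at least 50, or up to 2 with the smallest p where none passed, and the 5 genes most correlated with the members were named per table. The result for 1 gene that this rule gives is not reported here. Names, positions and lengths came from GENCODE vM21 (GRCm38), promoters from RefSeq (GRCm38.p6). The fit was tested on simulated data. Alternatives were pseudocounts of 0.5 and 5, no filter or a mean over 50, median centring, quantile normalization, array weights, a block for the replicate number, removal of the GC content and length trend, the VpreB pair summed, Cd79b as denominator, and each library left out in turn.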

Additional observations from a re-analysis of the deposited data

Results flagged for a closer look

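In 8 of 48 groups of 4 libraries, formed by the members, Ighm and the 2 ratios in each genotype and compartment, a library stood far from the other 3 by Dixon's criterion, which chance alone meets in about 1 of 20 groups. In WT tumor these were Cd79a in library 2 (20941 normalized counts, the lowest), Blnk in library 1 (5293, the highest) and Syk in library 3 (9876, the highest). In IL-6 KO tumor Vpreb2 was lowest in library 2 (9895), and Syk was highest in the same library (12629). Cd79b (10084) and Btk (4112) were highest in IL-6 KO tumor library 3. In stroma Blnk was lowest in WT library 1 (18.8).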

How the results depend on the processing

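Vpreb1 (0.43 to 0.60) and Vpreb2 (0.44 to 0.60) remained called in tumor under every alternative run. No member was called in stroma under any, where 1 to 4 of all genes were called. With array weights 5 members and 35 pathway genes were called in tumor in place of 3 and 21, with Cd79a (0.19, limma adjusted p = 0.0197) and Cd79b (0.18, limma adjusted p = 0.0306) added. Calls rose among all genes too under these weights, to 4153 in place of 2870. With the GC content and length trend removed Syk fell below the threshold (0.19, limma adjusted p = 0.0533), and the log2 fold changes of Cd79a (-0.017), Vpreb3 (0.12), Blnk (0.0062) and Btk (0.10), not called, changed sign; 2140 genes were called in place of 2870, of which 69.3% and 53.7% were higher. Igll1 (-0.028) and Ighm (-0.056) changed sign under quantile normalization and Btk (0.0024) under median centring. The VpreB to Cd79b log2 ratio in tumor differed by 0.34 (exact permutation p = 0.0571). The cause of these shifts was not tested.

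With each library left out in turn, log2 fold changes in tumor ran from 0.13 to 0.20 for Cd79a, 0.15 to 0.21 for Cd79b, 0.035 to 0.15 for Igll1, -0.043 to 0.013 for Btk and -0.0034 to 0.066 for Ighm. In stroma Vpreb3 ran from -0.28 to 0.82 and the Igll1 to Cd79a ratio from 1.17 to 1.76. Such sets gave 1569 to 3327 called genes in tumor. A replicate block left 3 members called in tumor (Vpreb1 0.53, Vpreb2 0.49, Syk 0.30) and 2230 genes in all, and 0 members in stroma; same-numbered libraries had correlated deviations of -0.019 to -0.00028 in tumor and -0.03 to 0.13 in stroma, so the numbers were not taken as pairs. Reads could not be recovered as whole counts, and levels near 0 in stroma are limited by depth that is unknown.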

Other observations

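Of 7 mature B cell markers listed in tumor, 4 were called lower in IL-6 KO. Cd74, the invariant chain of MHC class II, had 819 ± 37.5 normalized counts in WT and 501 ± 86.3 in IL-6 KO tumor (SD, n = 4, log2 fold change -0.72, limma adjusted p = 0.00507), Cd22, an inhibitory co-receptor, 1206 ± 216 and 828 ± 122 (limma adjusted p = 0.0283), and Ighd, the delta heavy chain, 998 ± 189 and 669 ± 92.9 (limma adjusted p = 0.0307), with Fcmr, the IgM Fc receptor, as the fourth (limma adjusted p = 0.0265). Among pro-B and pre-B markers Erg, a transcription factor of early progenitors, was the third that passed beside Vpreb1 and Vpreb2, with 5923 ± 233 in WT and 7614 ± 465 in IL-6 KO tumor (SD, n = 4, log2 fold change 0.36, limma adjusted p = 0.00631). Il7r, the receptor chain for the main growth signal of mouse pro-B cells, had 6122 ± 565 and 4894 ± 697 (SD, n = 4, limma adjusted p = 0.0604). These genes were chosen from the marker lists after their values were seen.

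The neutrophil marker sum was lowest among IL-6 KO libraries in the library numbered 3 in both compartments, at 7936 in tumor and 8305 in stroma, where the other IL-6 KO libraries had 17084 to 19212 and 29351 to 33914. Whether libraries of the same number came from the same mouse is not stated.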
